A study of Mus musculus with 6 samples.

Results

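Lysosomes are the acidic organelles in which cells break down proteins, sugars, lipids and nucleic acids. Their soluble enzymes are carried from the Golgi and the cell surface, their membrane holds transporters, channels and a proton pump, and many of their genes are switched on together by the transcription factor TFEB, which binds a short promoter element. Lysosomal proteases also prepare antigens for MHC class II presentation in B cells, macrophages and dendritic cells. The genes described here are 36 lysosomal enzyme, membrane and regulator genes, listed by function: 10 proteases and peptidases, 10 glycosidases and sulfatases, 7 genes of lipid handling, 7 membrane protein genes, and the genes of progranulin and TFEB. Of these, 35 had a probe set (the set of probes that measures 1 transcript) annotated with their symbol alone, and all 35 were bright enough to be tested among 13308 of 22180 genes. Glb1, the beta-galactosidase gene, shared its probe set with another gene and has no value here.

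They were measured in Ly6D-negative common lymphoid progenitors, early bone marrow cells with B, T and natural killer potential, sorted from adult mice aged 6 to 8 weeks. The mutant mice were OcnCre+;iDTR+/-, whose Cre, under the osteocalcin promoter, activates the diphtheria toxin receptor allele, and the control mice were OcnCre-;iDTR+/-, with the same receptor allele and no Cre. Mice of both genotypes received toxin daily for 4 weeks and cells were sorted the day after the last dose, so the groups differ in Cre and in the resulting deletion of osteocalcin-expressing cells, not in toxin. RNA of 3 mutant and 3 control samples was measured on Affymetrix arrays, 1 array each, and all values below are on the log2 scale, where a difference of 1 is a doubling of signal. The labels do not tell whether a sample came from 1 mouse or a pool, so the p-values reflect only how far these samples spread, which may be partly technical. Y-linked Eif2s3y was at 7.74, 7.31 and 4.77 in mutant replicates 1, 2 and 3 and 4.88, 7.82 and 7.85 in control replicates 1, 2 and 3. Sex-linked Xist was at 8.03, 5.57 and 10.72 in mutants and 11.04, 8.07 and 6.57 in controls. The samples of a genotype thus did not all come from the same animals. Mutant replicate 1 (Xist 8.03, Eif2s3y 7.74) and control replicate 2 (8.07 and 7.82) gave both signals. A split of the arrays by Eif2s3y is therefore not a clean split by sex. Whether these samples were pools of both sexes was not tested. The precision is limited by having 3 arrays in each genotype. In sorted cells measured in bulk, fewer cells of a type and less RNA per cell cannot be told apart.

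Several properties of the arrays bear on every value. Mutant replicate 2 stood apart: over all probe sets its correlation with any other array was 0.935 to 0.954, while pairs of the remaining arrays reached 0.973 to 0.989. Differences between the groups depended on brightness: the median difference, mutant minus control, was 0.09 in the dimmest 10% of tested genes and −0.21 in the brightest 10%, while over all tested genes it was −0.04. The lysosomal genes were bright, with 6 of 35 in the brightest 10%, so each is set below beside the 500 tested genes nearest to it in mean value ("like brightness"). The lymphoid marker Il7r was at 9.72 to 9.80 in mutants and 9.81 to 10.35 in controls. Of 12 tested lymphoid progenitor markers 11 had a lower mutant mean (57.5% of all tested genes), with a median difference of −0.22. In 6 of them the mutants were lower without overlap (9.99% of all tested genes). Relative to like brightness 7 markers were below and 5 above, with a median of −0.06. Ly6d, whose protein was used to exclude cells, still averaged 7.29 ± 0.28 in mutants and 7.86 ± 0.59 in controls (SD, n = 3 each). The labels also name bone marrow stromal cells as the tissue, and the stromal collagen gene Col1a1 was at 5.82 to 6.01 in mutants and 5.86 to 6.08 in controls. Among the osteoblast and stromal markers Alpl was brightest, at 7.97 to 8.29 in mutants and 7.82 to 8.21 in controls. Lepr, Sp7 and Ibsp were too dim to be tested. Granule genes of other lineages, which a lymphoid sort is not meant to hold, gave signal: neutrophil granule markers averaged 8.94 or more on every array and, like mast cell and basophil markers, were highest on mutant replicate 1 and control replicate 1. The mast cell protease genes Cma1 and Tpsb2 were too dim to be tested.

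The TFEB element contains the letters TCACGTG, and the promoters that hold these letters are shown. A match shows only that the letters are present, and binding of TFEB there was not tested. Promoter windows of 250 bases before to 50 after the transcription start, from RefSeq on GRCm38.p6, were in the table for 30 of the 35 genes. The letters TCACGTG or their reverse complement CACGTGA were present in 8 of these 30 (26.7%), against 6.45% of 10411 tested genes with a window and 4.29% of all 27025 genes in the table. Where the forms overlap as TCACGTGA, they are counted as 1 place. Below, capitals mark these letters, and each stretch runs 5′ to 3′ on the gene's strand, before the start. It ends up to 20 bases beyond the outermost match.
Lamp1, chr8:13159079-13159160, plus strand: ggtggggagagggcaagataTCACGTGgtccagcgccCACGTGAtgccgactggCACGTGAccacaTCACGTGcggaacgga
Mcoln1, chr8:3500427-3500500, plus strand: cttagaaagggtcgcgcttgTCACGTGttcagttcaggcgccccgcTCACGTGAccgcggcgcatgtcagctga
Cln3, chr7:126583331-126583405, minus strand: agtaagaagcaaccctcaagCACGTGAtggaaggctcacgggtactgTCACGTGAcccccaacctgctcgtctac
Ctsd, chr7:142387899-142388077, minus strand: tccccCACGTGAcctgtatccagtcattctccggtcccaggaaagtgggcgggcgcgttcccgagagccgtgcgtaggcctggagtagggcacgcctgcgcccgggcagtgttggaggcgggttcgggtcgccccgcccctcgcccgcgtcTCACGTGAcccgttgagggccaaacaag
Ctsa, chr2:164833740-164833772, plus strand: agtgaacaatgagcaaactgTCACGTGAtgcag
Lgmn, chr12:102439116-102439162, minus strand: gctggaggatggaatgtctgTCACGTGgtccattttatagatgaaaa
Gaa, chr11:119267802-119267848, plus strand: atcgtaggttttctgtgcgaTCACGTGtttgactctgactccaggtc
Sgsh, chr11:119355513-119355559, minus strand: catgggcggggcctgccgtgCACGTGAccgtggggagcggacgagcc
Ctss, chr3:95526686-95526785, plus strand: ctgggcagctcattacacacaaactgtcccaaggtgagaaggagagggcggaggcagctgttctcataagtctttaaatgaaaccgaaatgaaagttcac

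Lamp1 carried 4 places, all within its printed stretch, and Ctsa carried a second place just after the start, which is not printed. Ctss, the gene with the largest difference between the groups, had no match in its window, which says only that these letters are not there. The 8 genes with the letters had a median difference of −0.20 and 6 of them had a lower mutant mean. Among the 22 genes without them 17 were lower in the mutant mean and the median was −0.23. Relative to genes of like brightness these medians were −0.05 with the letters and −0.09 without. The genes with and without the letters thus had similar medians, and their difference was not tested.

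Lysosomal genes leaned lower in mutant progenitors, most clearly the proteases, but no gene passed the test. In limma, with Benjamini-Hochberg adjustment over 13308 genes, 0 of 35 lysosomal genes passed an adjusted p of 0.05, and 0 of all genes did (0%); at an unadjusted p under 0.05 there were 1068 genes in limma and 879 in the unmoderated test. The mutant mean was lower for 26 of the 35 genes and higher for 9, where 57.5% of all tested genes were lower and 69.7%, on average, of the genes of like brightness. The median difference over the 35 genes was −0.23, and −0.06 after subtracting for each gene the median of genes of like brightness, with 25 genes below that median and 10 above it. At an unadjusted p under 0.05, 7 genes were lower (6.02% of all tested genes, and on average 8.22% of genes of like brightness) and 0 were higher (2.01% of all tested genes). In 6 genes, each lower in mutants, every mutant value lay outside the control range (9.99% of all tested genes and 13.5% of those of like brightness). No lysosomal gene was higher without overlap (5.40% of all tested genes). The lean in the plain count is thus largely shared by other genes of this brightness. The share at an unadjusted p under 0.05, 20% of the 35 genes, was above both backgrounds, and that difference was not tested.

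**Figure D1:**
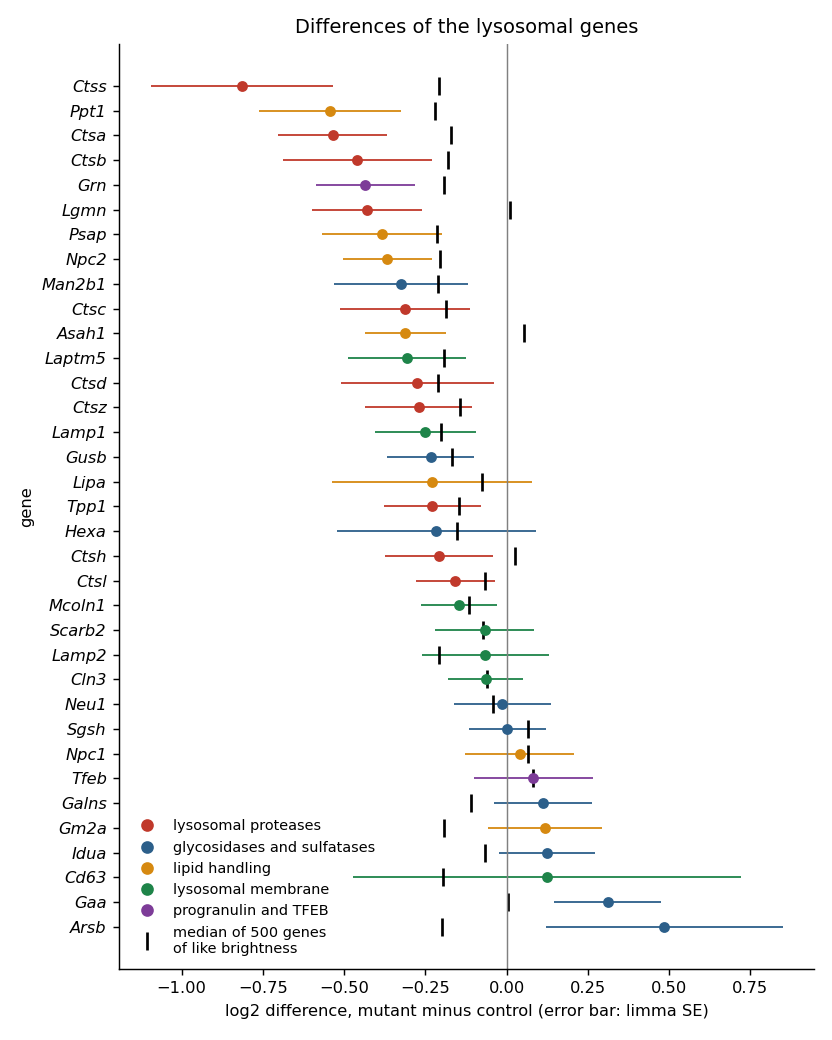
Differences of the 35 lysosomal genes between mutant and control progenitors on the log2 scale (points, coloured by role, with limma's standard error) and the median difference of the 500 genes of like brightness (black ticks). Ctss is farthest to the left at −0.81, Arsb farthest to the right at 0.49, and most black ticks are themselves below 0.

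**Figure D2:**
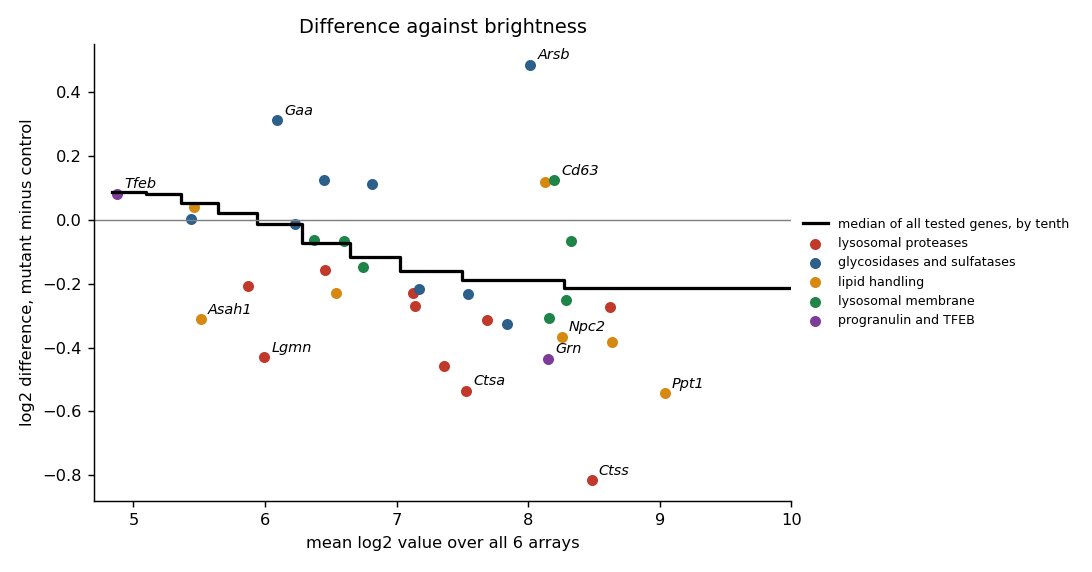
Difference between mutant and control (vertical axis, log2) against the mean log2 value over all 6 arrays, with lysosomal genes as points and the median of all tested genes in 10 equal classes of brightness as a line. The line descends to −0.21 in the brightest class, and most proteases lie below it.

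The 3 mutant arrays did not behave alike. The median over the 35 genes of the value minus the control mean was 0.07 in mutant replicate 1, −0.26 in mutant replicate 2 and −0.28 in mutant replicate 3, while the controls were at −0.02 to 0.01. Mutant replicate 1 thus lay near the controls and the other mutants below them. After subtracting the genes of like brightness array by array, these medians became 0.06, −0.04 and −0.14 in mutant replicates 1, 2 and 3, against −0.02 to 0.02 in controls. Mutant replicate 3 lay under all controls for 25 lysosomal genes (40.5% of all tested genes and 52.7% of those of like brightness). Mutant replicate 2 did so for 21 (45.0% of all tested genes, 57.8% of those of like brightness) and mutant replicate 1 for 9 (23.8% of all tested genes). For 16 genes the lowest arrays were mutant replicates 2 and 3 (24.4% of all tested genes, 34.7% of those of like brightness). For mutant replicates 1 and 2 the counts are thus close to those of other genes as bright, and for mutant replicate 3 they are above. Mutant replicate 3 was also the only mutant array low in Y-linked Eif2s3y (4.77), as control replicate 1 was among controls (4.88). Within the arrays high in Eif2s3y (2 against 2) the lysosomal median difference was −0.09, and within the low ones (1 against 1) −0.33. The high ones differed among themselves in Xist (8.03 and 5.57 in mutants, 8.07 and 6.57 in controls). For mutant replicate 3, sex and other features of the sample cannot be told apart.

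**Figure D3:**
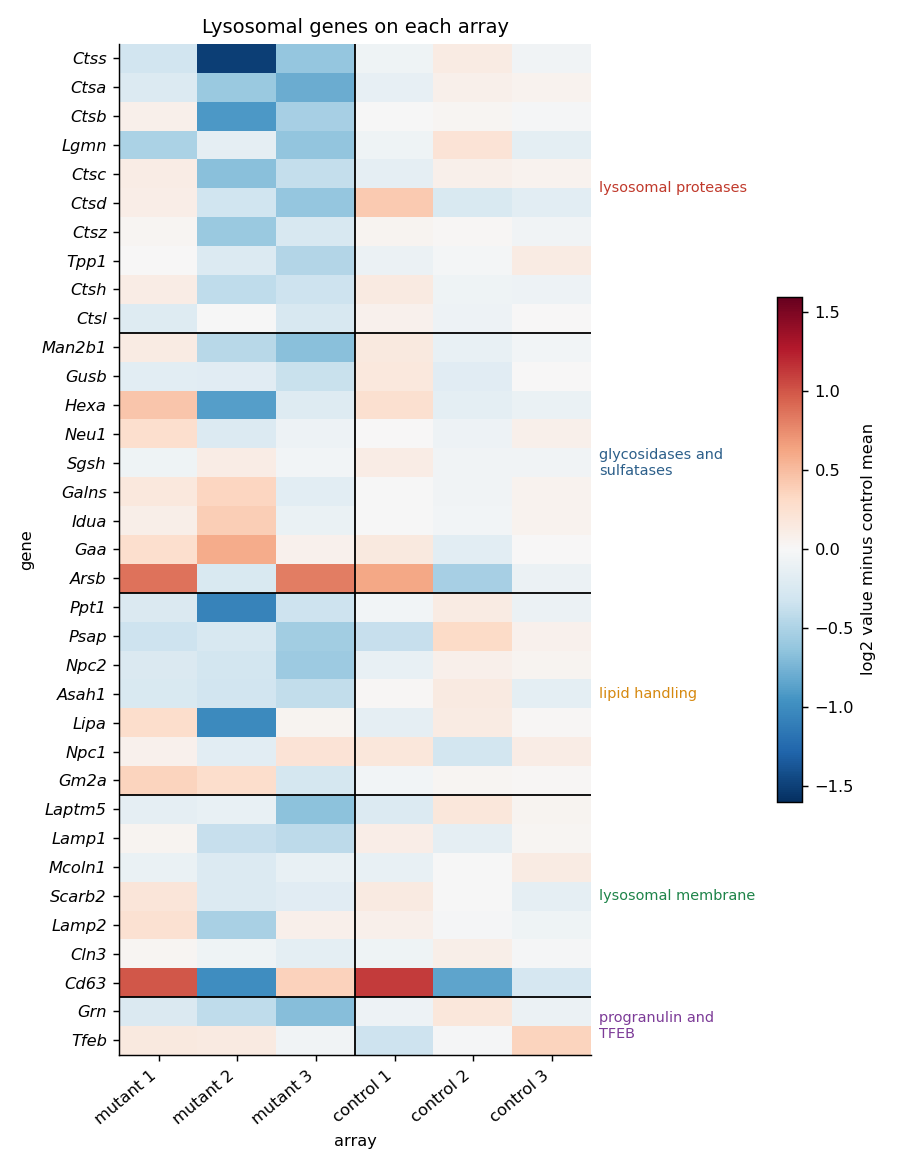
Log2 value of each lysosomal gene minus its control mean on the 3 mutant and 3 control arrays, grouped by role, with blue for lower and red for higher. Nearly all proteases are blue on mutant replicates 2 and 3, and Cd63 is red on mutant replicate 1 and control replicate 1.

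Of the proteases all 10 had a lower mutant mean (median −0.29), and all 10 lay below the median of genes of like brightness, by a median of 0.18. Ctss, a cysteine protease that cleaves the invariant chain of MHC class II, was at 8.58, 7.38 and 8.26 in mutant replicates 1, 2 and 3 and at 8.82, 9.02 and 8.83 in control replicates 1, 2 and 3. Its groups did not overlap, and mutant replicate 2 was far below the other mutants. The difference was −0.81 ± 0.28 (SE; adjusted p = 0.594 in limma), −0.47 without mutant replicate 2 and −1.07 without mutant replicate 1, against −0.21 in genes of like brightness. Ctsa, a carboxypeptidase that also protects beta-galactosidase and sialidase, was at 7.58, 7.20 and 6.99 in mutants and at 7.66, 7.87 and 7.84 in controls. Here mutant replicate 3 was lowest and mutant replicate 1 was just under the lowest control. The difference was −0.54 ± 0.17 (adjusted p = 0.594), with genes of like brightness at −0.17, and it stayed between −0.70 and −0.40 on leaving out any 1 array. Lgmn, the asparaginyl endopeptidase that starts the processing of several cathepsins, was at 5.70, 6.07 and 5.58 in mutants and 6.14, 6.43 and 6.06 in controls, overlapping by mutant replicate 2 and control replicate 3. It differed by −0.43 ± 0.17 (adjusted p = 0.594), although genes of its brightness had a median difference of 0.01.

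The other 7 proteases had unadjusted p above 0.05, and leaving out 1 array moved most of their differences. Ctsb, a cysteine protease found in most cells, was at 7.66, 6.67 and 7.05 in mutants and 7.58, 7.63 and 7.56 in controls, a difference of −0.46 ± 0.23 that was −0.23 without mutant replicate 2. Ctsc, which activates the serine proteases of granules, averaged 7.53 ± 0.40 in mutants and 7.84 ± 0.12 in controls (SD, n = 3 each), and its difference of −0.31 was −0.13 without mutant replicate 2. Ctsd, the main aspartic protease, averaged 8.48 ± 0.36 in mutants and 8.76 ± 0.37 in controls, and control replicate 1 alone was at 9.18, so that without it the difference was −0.06. These 3 had their highest mutant value on replicate 1. Ctsz differed by −0.27 ± 0.16 (SE) and Ctsh by −0.21 ± 0.17, and without mutant replicate 2 these were −0.11 and −0.10. Tpp1, a tripeptidyl peptidase, differed by −0.23 ± 0.15 and by −0.11 without mutant replicate 3, and Ctsl by −0.16 ± 0.12. Without mutant replicate 1, which lay nearest the controls, Ctsb, Ctsc, Ctsd, Ctsh, Ctsz and Tpp1 differed by −0.73, −0.53, −0.47, −0.37, −0.42 and −0.35. By array the protease median relative to the control mean was 0.02, −0.50 and −0.50 in mutant replicates 1, 2 and 3, against −0.04 to 0.02 in controls. Relative to genes of like brightness it was −0.0072, −0.29 and −0.33, against −0.041 to 0.0044 in controls, so the lower level of the proteases on mutant replicates 2 and 3 exceeded that of other genes as bright, and mutant replicate 1 was at the level of the controls.

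**Figure D4:**
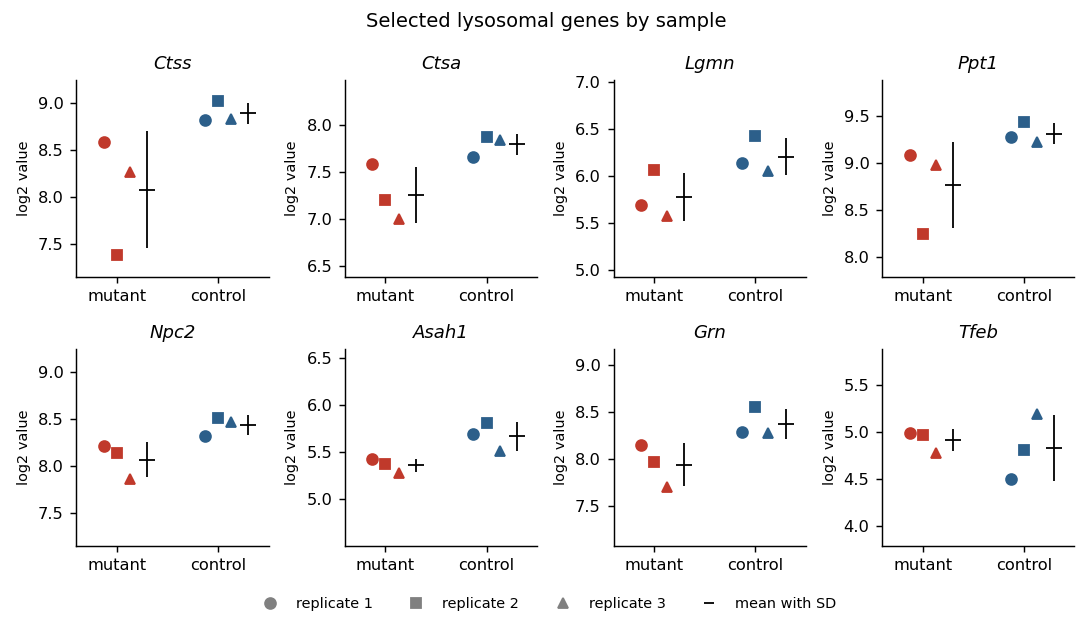
Log2 values of Ctss, Ctsa, Lgmn, Ppt1, Npc2, Asah1, Grn and Tfeb in each mutant (red) and control (blue) sample, with symbols for replicates and bars for the mean with its SD. Mutant and control points do not overlap for Ctss, Ctsa, Ppt1, Npc2, Asah1 and Grn, and Tfeb shows no separation.

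Markers of antigen-presenting cells were read beside Ctss. In the list of conventional dendritic cell markers 5 of 6 tested genes had a lower mutant mean (5 below and 1 above like brightness), where 57.5% of all tested genes did. The mean level over the 8 markers with a value was 5.97 to 6.04 in mutants and 6.18 to 6.42 in controls. The MHC class II gene H2-Aa was at 6.05, 5.09 and 5.85 in mutants and 6.37, 6.92 and 6.86 in controls, and H2-Eb1 at 5.35, 5.22 and 5.34 in mutants and 5.68, 6.17 and 5.73 in controls. Their groups did not overlap, and they had the lowest p of the list. Xcr1, a marker of 1 dendritic lineage, went the other way, at 4.92, 5.34 and 5.36 in mutants and 4.89, 4.92 and 4.96 in controls. Of the markers too dim to be tested, Zbtb46 differed by 0.17 and Itgax by −0.42. The B lineage markers were lower for 6 of 6 tested genes (5 below and 1 above like brightness). Over the 8 with a value the mean level was 7.60 to 7.79 in mutants and 7.73 to 8.20 in controls. Macrophage and monocyte markers were lower for 8 of 13 tested genes (8 below and 5 above like brightness), and over the 18 with a value the mean level was 5.75 to 6.06 in mutants and 5.98 to 6.10 in controls. In that list Clec4a3 (−1.17 ± 0.24, SE) and the receptor gene Csf1r (−0.37 ± 0.14) were lower without overlap, while Ly6c2 (0.14), Cd14 (0.10), C1qb (0.08), Slc40a1 (0.07) and Marco (0.06) had higher mutant means. Plasmacytoid dendritic markers were lower for 6 of 8 tested genes, but 3 lay below and 5 above like brightness. Over the 11 with a value their mean level was 6.35 to 6.56 in mutants and 6.51 to 6.62 in controls. The part of these cell types in the differences of Ctss and the other proteases was not tested.

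Among lipid handling genes 5 of 7 had a lower mutant mean (median −0.31), and 6 of 7 were below genes of like brightness. Npc2, which binds cholesterol and passes it to Npc1 for export, was at 8.21, 8.14 and 7.86 in mutants and 8.32, 8.52 and 8.48 in controls. The groups did not overlap, with a difference of −0.37 ± 0.14 (SE; adjusted p = 0.594 in limma), between −0.44 and −0.26 on leaving out any 1 array. Its partner Npc1 was at 5.48 ± 0.19 in mutants and 5.44 ± 0.26 in controls (SD, n = 3 each). Npc1 has a second, dimmer probe set, which differed by −0.21 where the first differed by 0.04, so no direction can be given. Asah1, the acid ceramidase gene, was at 5.42, 5.37 and 5.28 in mutants and 5.69, 5.81 and 5.51 in controls. All mutant values lay under every control (−0.31 ± 0.12, adjusted p = 0.594), while genes of like brightness had a median of 0.05. Asah1 had a pooled SD within groups of 0.12, and its difference was between −0.39 and −0.24 on leaving out any 1 array.

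Ppt1, a thioesterase that removes palmitate from proteins, was at 9.08, 8.24 and 8.98 in mutants and 9.27, 9.43 and 9.22 in controls. It did not overlap either, but mutant replicate 2 set much of the difference, which was −0.54 ± 0.22 (adjusted p = 0.594) with it and −0.28 without it. Psap, whose product is cut into the saposins that help enzymes reach their lipids, was at 8.50, 8.57 and 8.27 in mutants and 8.46, 9.14 and 8.90 in controls. Control replicate 1 lay within the mutants, and the difference of −0.38 ± 0.19 was −0.57 without it and −0.23 without control replicate 2. Lipa, the acid lipase gene, was lowest on mutant replicate 2 (5.64), and its difference of −0.23 ± 0.31 turned to 0.16 without that array. Gm2a, the activator protein for ganglioside breakdown, was at 8.18 ± 0.35 in mutants and 8.07 ± 0.04 in controls.

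Grn, the gene of progranulin, a secreted and lysosomal protein that regulates lysosomal enzymes, was at 8.14, 7.97 and 7.69 in mutants and 8.29, 8.55 and 8.27 in controls. The groups did not overlap, and the difference of −0.43 ± 0.15 (SE; adjusted p = 0.594 in limma) was −0.54 to −0.31 on leaving out any 1 array, with genes of like brightness at −0.19. Tfeb itself was dim, at 4.99, 4.97 and 4.78 in mutants and 4.50, 4.81 and 5.19 in controls, just around the filter on low values (4.84). Its difference of 0.08 ± 0.18 equalled the median of genes of like brightness, 0.08, and the mutant values lay inside the range of the controls. A related factor gene, Tfe3, was at 6.11, 6.68 and 6.21 in mutants and 6.22, 6.11 and 6.05 in controls.

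Glycosidases and sulfatases did not lean one way. Of the 9 tested genes 4 had a lower and 5 a higher mutant mean, and against genes of like brightness 4 were below and 5 above. Gaa, the enzyme that degrades glycogen, was at 6.20, 6.53 and 6.00 in mutants and 6.09, 5.77 and 5.94 in controls, a difference of 0.31 ± 0.16 (SE; adjusted p = 0.594 in limma) with overlapping groups, and 0.17 without mutant replicate 2. Gusb, the beta-glucuronidase gene, was at 7.50, 7.48 and 7.31 in mutants and 7.84, 7.48 and 7.67 in controls (−0.23 ± 0.13, and −0.15 without control replicate 1). Man2b1, which trims mannose, was at 8.13, 7.57 and 7.33 in mutants and 8.16, 7.89 and 7.96 in controls (−0.33 ± 0.21), and it differed by −0.15 without mutant replicate 3 and −0.55 without mutant replicate 1. Both had 1 mutant value or more among the controls. Hexa, a subunit of beta-hexosaminidase, ranged from 6.39 to 7.72 in mutants and from 7.13 to 7.54 in controls. Idua, an enzyme of heparan and dermatan sulfate breakdown (0.12 ± 0.15), the keratan sulfate enzyme Galns (0.11 ± 0.15), the heparan sulfate enzyme Sgsh (0.0025 ± 0.12) and the sialidase Neu1 (−0.013 ± 0.15) differed by less than their errors.

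Membrane protein genes were close to the background of their brightness. Of 7 genes 6 had a lower mutant mean, but the median difference was only −0.07, and 4 lay below and 3 above genes of like brightness. Laptm5, a lysosomal membrane protein of blood cells, was at 8.16, 8.19 and 7.65 in mutants and 8.09, 8.48 and 8.35 in controls (−0.31 ± 0.18, SE), and −0.13 without mutant replicate 3. Lamp1, an abundant coat protein of the lysosomal membrane, was at 8.45, 8.04 and 7.99 in mutants and 8.52, 8.27 and 8.44 in controls (−0.25 ± 0.16, with −0.17 without mutant replicate 3 and −0.40 without mutant replicate 1). Mcoln1, the calcium channel that signals to TFEB, was at 6.71, 6.60 and 6.71 in mutants and 6.70, 6.82 and 6.95 in controls (−0.15 ± 0.12, and −0.08 without control replicate 3). In each of these 3 genes the groups overlapped. Lamp2 (−0.07 ± 0.20), the enzyme receptor gene Scarb2 (−0.07 ± 0.15) and Cln3 (−0.06 ± 0.12) differed by less than their errors.

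Cd63 and Arsb had the largest spread within groups of the 35 genes, and their values are given in full because of it. Cd63, a tetraspanin of lysosomes and secretory granules that is used as a surface marker of activated basophils, was at 9.13, 7.14 and 8.50 in mutants and 9.25, 7.29 and 7.87 in controls. Its pooled SD within groups, 1.01, was larger than that of 99.7% of tested genes, and its difference was 0.12 ± 0.60 (SE). Arsb, a sulfatase of dermatan sulfate, was at 8.65, 7.53 and 8.59 in mutants and 8.39, 7.25 and 7.68 in controls. Its pooled SD was 0.60 and its difference 0.49 ± 0.37, which ranged from 0.22 without control replicate 2 to 0.85 without mutant replicate 2. With array weights the Arsb difference was 0.91 (adjusted p = 0.019 in limma). That setting put a weight of 5.20 on mutant replicate 3 and called 2960 of 13308 tested genes. Of the 16 lysosomal genes it called, Arsb was the only higher one. A second Arsb probe set differed by 0.05, with 8.06, 7.22 and 7.40 in mutants and 8.05, 7.09 and 7.38 in controls. In both probe sets and in Cd63, replicate 2 was the lowest of each genotype. Granule markers were read on the same arrays. All 12 neutrophil and all 6 tested mast cell and basophil markers had their lowest mutant value on replicate 2, while among controls replicate 2 was lowest for 7 of the 12 and 6 of the 6, and replicate 3 for the other 5 neutrophil markers, Ltf among them (9.45, 8.14 and 8.76 in mutants and 9.38, 9.03 and 8.58 in controls). The basophil protease gene Mcpt8 was at 10.59, 9.58 and 10.17 in mutants and 10.93, 8.89 and 9.98 in controls, and Elane, a neutrophil elastase gene, at 10.56, 9.49 and 9.89 in mutants and 10.34, 8.05 and 8.94 in controls. The mean level over the 8 mast cell and basophil markers was 7.39, 6.50 and 6.98 in mutants and 7.68, 6.16 and 6.76 in controls, and that over the 12 neutrophil granule markers 10.32, 9.03 and 9.74 in mutants and 10.14, 8.94 and 9.23 in controls. The part of granulocytes in these values was not tested.

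**Figure D5:**
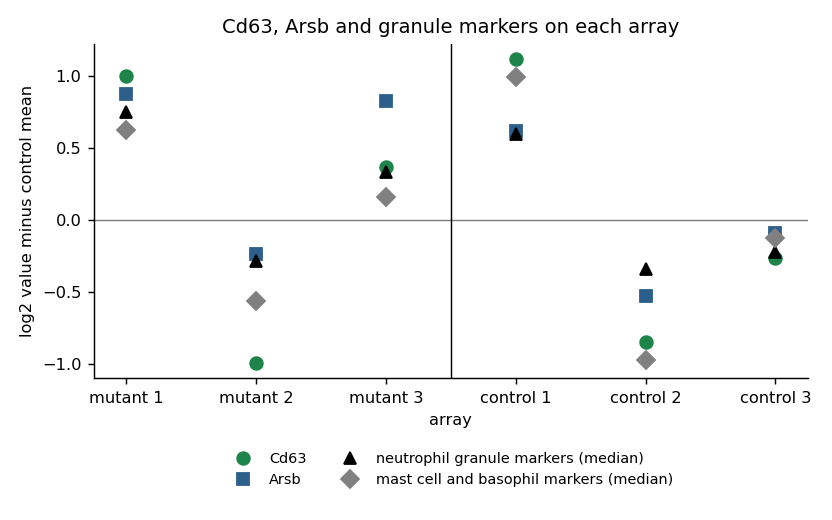
Log2 values minus the control mean on each array for Cd63 and Arsb, beside the median of the neutrophil granule markers and of the mast cell and basophil markers. All 4 are above 0 on mutant replicates 1 and 3 and control replicate 1, and below 0 on the other arrays.

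For 9 lysosomal genes the 2 highest arrays were mutant replicate 1 and control replicate 1, the arrays with the most granule marker signal (11.0% of all tested genes and 13.7% of those of like brightness). They were Ctsd, Ctsh, Ctsz, Hexa, Man2b1, Lamp1, Lamp2, Cd63 and Scarb2. With both of these arrays left out, which leaves 2 mutant and 2 control arrays and was chosen after seeing the data, 28 of 35 genes had a lower mutant mean, against 59.8% of all tested genes and 72.7% of those of like brightness on the same arrays. Their median difference was −0.30, where all tested genes had −0.08, and −0.15 relative to like brightness. Of the arrays left out, mutant replicate 1 was the mutant array nearest the controls. Ctss then differed by −1.10, Ctsa by −0.76 and Grn by −0.58, and no gene passed in limma.

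Other parts of the lysosomal system were read from wider lists of genes that hold none of the 36, beside a background of 57.5% of all tested genes with a lower mutant mean. The subunits of the V-ATPase, the pump that acidifies the lysosome, were lower for 15 of 16 tested genes (median −0.30), and 14 of 16 lay below genes of like brightness. Tcirg1, its a3 subunit in the membrane, was at 7.44, 7.49 and 7.41 in mutants and 7.74, 8.03 and 7.78 in controls, without overlap (−0.40 ± 0.12, SE). Atp6v1e1, a stalk subunit, was at 7.45, 6.68 and 6.98 in mutants and 7.68, 7.71 and 7.54 in controls, again without overlap (−0.61 ± 0.19), and Atp6v0b differed by −0.41 ± 0.16. Of 16 subunit genes, 5 had an unadjusted p under 0.05, all lower (6.02% of all tested genes), and none passed (adjusted p = 0.594 in limma for these 3). By array the V-ATPase median was −0.03, −0.59 and −0.29 in mutant replicates 1, 2 and 3, against −0.04 to 0.03 in controls.

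Genes of sorting to lysosomes were lower for 17 of 22 (median −0.18), with 14 of 22 below like brightness, led by the late endosome GTPase gene Rab7 (−0.38 ± 0.13, SE), Plekhm1 (−0.36 ± 0.13) and Nagpa, which uncovers the mannose phosphate tag (−0.33 ± 0.13). Nutrient signalling genes at the lysosome were lower for 13 of 17 (median −0.18), with 11 of 17 below like brightness, including the Ragulator genes Lamtor2 (−0.64 ± 0.22) and Lamtor5 (−0.44 ± 0.16) and the calcineurin subunit gene Ppp3cb (−0.63 ± 0.26). Autophagy genes were lower for 18 of 22 (median −0.14), with 15 of 22 below like brightness, including Uvrag (−0.30 ± 0.12), Atg5 (−0.36 ± 0.15) and the cargo receptor gene Sqstm1 (−0.39 ± 0.16). In limma the adjusted p was 0.594 for each of these genes, and except for Ppp3cb, whose groups overlapped, their mutant values lay below every control. Lower without overlap were 6 sorting, 4 nutrient signalling and 5 autophagy genes (9.99% of all tested genes). Higher without overlap were 2 sorting genes, Gga1 (0.33 ± 0.17) and Cln6 (0.15 ± 0.11), and 0 genes of the nutrient signalling and autophagy lists (5.40% of all tested genes).

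Other lysosomal hydrolases leaned less, with 12 of 18 lower (median −0.11), 11 of 18 below like brightness, 0 at an unadjusted p under 0.05 and the lowest p for Pcyox1 (−0.21 ± 0.12, SE), Ctsw, a protease of cytotoxic lymphocytes (−0.36 ± 0.21), and Manba (−0.19 ± 0.13). Other lysosomal membrane genes were lower for 14 of 22 (median −0.12), with 12 of 22 below like brightness. Without overlap, 3 were lower (9.99% of all tested genes) and 3 higher (5.40% of all tested genes). The amino acid sensor Slc38a9 was at 6.62, 5.31 and 6.17 in mutants and 6.84, 7.02 and 6.88 in controls (−0.88 ± 0.29), without overlap, and the cystine exporter Ctns (−0.35 ± 0.13) and the cobalamin exporter Lmbrd1 (−0.39 ± 0.15) were also lower without overlap. In the opposite direction, Ostm1, the partner of a chloride transporter, was at 6.94, 6.83 and 6.97 in mutants and 6.68, 6.72 and 6.49 in controls. Slc29a3 (0.22 ± 0.15) and Abcb9 (0.28 ± 0.13) were also higher without overlap, and these 3 were chosen after their values were seen. Of 3 tested genes of endosomal nucleic acid breakdown and sensing, Unc93b1, which escorts Toll-like receptors to endosomes, was at 8.34, 8.11 and 7.99 in mutants and 8.31, 9.09 and 8.80 in controls (−0.59 ± 0.21). Pld4, an endolysosomal exonuclease gene, was at 6.44, 6.22 and 5.81 in mutants and 6.94, 7.18 and 6.89 in controls (−0.85 ± 0.18), while Tlr9 differed by 0.06 ± 0.13. None of the tested genes passed in limma (adjusted p = 0.594 for Slc38a9, Unc93b1 and Pld4).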

How the data were processed

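The deposited values are log2 intensities per probe set made with RMA by the authors, per the submitters' processing notes; the version and the annotation are not stated in the sources used here. Per the labels' protocols, RNA was amplified as cDNA and labelled with biotin. RMA gives no detection call, so low values cannot be separated from background. Of 41345 probe sets, 23521 had 1 gene symbol and 1814 several in the platform annotation; all 35 lysosomal genes with a value matched a RefSeq symbol. Of several probe sets for a gene the brightest was used, and the lowest 40% of genes (mean under 4.84) were not tested. The genotypes were compared on all 6 arrays with the moderated test of limma 3.58.1 (R 4.3.3), 2-sided, with p-values adjusted by Benjamini-Hochberg over all tested genes and a threshold of 0.05. The procedure was first tested on simulated data with independent noise and 200 changed genes. It recovered 92% of changes of 1 and 100% of changes of 2, with 14 false calls. The simulation held no outlying array and no dependence on brightness, so it cannot tell how the procedure performs on arrays with these properties. Differences are mutant minus control, with limma's standard error; a median by array is that of log2 values minus the control mean. The median and shares in the 500 genes nearest in mean value describe like brightness and are no test. Lysosomal genes were given in full at an unadjusted p under 0.05, without overlap, or among the 3 lowest p of their role. Ctsb, Psap, Cd63 and Arsb were given in full after their values were seen. From each wider list the 3 lowest p were named. Tfe3, Ostm1, Slc29a3, Abcb9, Gga1, Cln6, Clcn7 and the marker genes were added after their values were seen. The members and lists were chosen with earlier results of these data known. Figures were drawn with matplotlib 3.10.9. Replicate numbers were not used to pair the samples in the main comparison. No scan dates are given. Y-linked Eif2s3y divided the arrays across groups and was low on mutant replicate 3 and control replicate 1. Within the arrays high in it (2 against 2) the lysosomal median difference was −0.09, and within the low ones (1 against 1) −0.33. Alternatives were other filters, probe set rules, normalizations, variance models, blocks, array weights and leaving out arrays.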

Additional observations from a re-analysis of the deposited data

How the results depend on the processing

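Under 11 other settings with all 6 arrays the lysosomal median difference stayed below 0, between −0.29 with arrays centred on their medians and −0.10 after cyclic loess (−0.11 with repeated quantile normalization), and 24 to 30 genes had a lower mutant mean. Leaving out 1 array gave medians of −0.35 (without mutant replicate 1) to −0.11 (without mutant replicate 2) and 24 to 29 lower genes. The median relative to like brightness ran from −0.13 to −0.06 with all arrays, −0.07 with 250 and −0.06 with 1000 nearest genes, and from −0.11 to −0.05 with 1 array left out. Genes past the threshold over the whole table numbered 0 to 4 with 1 array left out and 0 in the other settings, except 2960 with array weights, 16 of them lysosomal; those weights put 5.20 on mutant replicate 3 and 0.21 on mutant replicate 2. The replicate block left the lysosomal median at −0.23, 26 lower genes and 0 calls. Deviations of same-numbered samples correlated at 0.13, 0.20 and −0.13. The labels do not tell whether same-numbered samples were handled together, and so few pairs cannot decide it. Small differences changed sign. With array weights Idua was −0.085, Galns −0.14, Sgsh −0.0090, Gm2a −0.23, Lamp2 0.089 and Tfeb −0.11. With centring on medians Sgsh was −0.060 and Npc1 −0.022. After cyclic loess Neu1 was 0.017, Sgsh −0.049, Npc1 −0.0095, Lamp2 0.11, Scarb2 0.0024 and Tfeb −0.0050. With repeated quantile normalization Neu1 was 0.0056, Sgsh −0.033, Lamp2 0.080 and Scarb2 0.00083. Npc1 was −0.084 as the mean of its probe sets and −0.21 in its other probe set. Without mutant replicate 1 and control replicate 1, Gm2a was −0.019 and Tfeb −0.12. With 1 array left out the ranges were −0.54 to 0.12 for Hexa, −0.15 to 0.092 for Neu1, −0.0099 to 0.24 for Idua, −0.00096 to 0.26 for Galns, −0.056 to 0.063 for Sgsh, −0.49 to 0.16 for Lipa, −0.22 to 0.16 for Lamp2, −0.20 to 0.010 for Scarb2, −0.11 to 0.14 for Npc1, −0.31 to 0.68 for Cd63 and −0.086 to 0.26 for Tfeb. The cause of these changes was not tested. RMA values give no signal over background, so the dimmest gene, Tfeb, has the least certain value.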
